A study of Mus musculus with 26 samples.

Results

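2i-MEFs, fibroblasts grown from chimeric embryos made with ES cells kept in 2i medium, were compared with MEFs taken directly from mouse embryos. The comparison used 4 RNA-seq libraries, 2 a side, of the 26 samples of the series. The 2i-MEF side held 1 *Dnmt3a* KO and 1 *Dnmt3b* KO library, and the MEF side held 1 WT library and 1 library labelled *Dnmt3a* KO. Of 52454 gene symbols, the 14205 autosomal genes that reached 1 FPKM (fragments per kilobase of transcript, scaled by the mapped fragments of the library) in at least 1 of the 4 libraries were tested.

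All 4 cultures were at E14.5 and passage 1. The 2i-MEFs are female and of the strain F1 (129X1/SvJ and MSM/Ms). Their ES cells had been disrupted for *Dnmt3a* or *Dnmt3b* by CRISPR/Cas9, so each library traces back to an edited ES cell line, and they carried a GFP and neomycin transgene. G418 selection and sorting of GFP-positive cells removed cells of the host embryo. The MEFs are male and C57BL6, came from crosses of mice heterozygous for a *Dnmt3a* deletion, have no selection or sort stated, and received DMSO as the vehicle of the inhibitor GSK126 for 2 days. Strain, sex, selection, vehicle and the history of the ES cells all differ between the sides and cannot be told apart. No WT 2i-MEF library was analysed here, so both 2i-MEF libraries lack a DNMT3 enzyme. The libraries of a side also differ in genotype, and the spread within a side therefore includes genotype. Nothing states that they came from separate animals beyond the labels, so p-values measure the spread between these libraries.

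In 2i medium, inhibitors of MEK and of GSK3 hold ES cells in a naive state, and female ES cells grown in it are known to have little DNA methylation. Most methylation is laid down anew by DNMT3A and DNMT3B when such cells differentiate. Imprinted genes are the known exception: they are expressed from 1 parental allele because a mark was set in the egg or the sperm, and somatic cells do not set it again. MEF cultures consist mainly of mesenchymal cells that secrete collagen and other matrix, and primary cultures are known to hold macrophages and other cells of the embryo.

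Depth, estimated from the steps of low FPKM values, was 9180617 and 10936375 mapped reads in the 2i-MEF libraries and 17986012 and 25620540 in the MEF libraries. *Xist*, the RNA of the inactive X chromosome, was at 27.9 and 32.1 FPKM in 2i-MEFs and at 0 and 0.0022 FPKM in MEFs, as the labelled sexes have it. *Dnmt3a* was at 4.21 FPKM in *Dnmt3a* KO 2i-MEFs and at 23.9 FPKM in *Dnmt3b* KO 2i-MEFs. In MEFs it was at 26.1 FPKM in WT, while the library labelled *Dnmt3a* KO had 85.7 FPKM, which goes against that label as far as a whole-gene value can show. A value for the whole gene does not show whether deleted exons are present. *Dnmt3b* was low throughout, at 1.81 and 0.817 FPKM in 2i-MEFs and 0.40 and 0.964 FPKM in MEFs.

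The 2 sides stood further apart than the libraries within each side. Across the 14205 genes, Pearson's r of log2(FPKM + 1) was 0.948 between the 2i-MEF libraries, 0.961 between the MEF libraries and between 0.888 and 0.908 across sides. Genes are not independent replicates, and the libraries of a side share strain and sex. The share of genes at least 2-fold apart in FPKM + 1 was 8.24% and 5.88% within the sides and between 14.1% and 18.8% across them.

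Both 2i-MEF libraries lay above both MEF libraries in 4255 genes (30.0%) and below both in 3785 (26.6%), together 56.6% of all genes tested. With 2 libraries a side, an exact permutation test cannot give a two-sided p below 0.333, and a bare lack of overlap is common. The nearest libraries of the sides were at least 2-fold apart in FPKM + 1 in 327 genes higher in 2i-MEFs (2.30%) and 491 lower (3.46%), together 5.76%. With limma on log2(FPKM + 1) and Benjamini-Hochberg adjustment over all 14205 genes, 205 genes rose (1.44%) and 312 fell (2.20%) in 2i-MEFs at an adjusted p under 0.05. The libraries of the sides did not overlap in any of these 517 genes (3.64%). No gene was called by limma when any 1 of the 4 libraries was left out (lowest adjusted p between 0.151 and 0.193, and 2109 to 2814 genes at an unadjusted p under 0.05). Such a fit has 1 library on a side, which is assumed to vary like the other side. Lost calls therefore say little of how stable the differences are. On the log2 scale the difference of *Igf2* lay between -11.11 and -10.42 and that of *Dlk1* between -7.49 and -7.19. Limma calls genes whose spread within sides is small against the difference, so narrow ranges follow from the call and do not test stability. Without the filter on low values, limma called 13 genes higher and 16 lower of 22691. Leaving out a library, the one labelled *Dnmt3a* KO included, can add genes to the counts of no overlap and of 2-fold separation but remove none. In bulk RNA, fewer cells of a type and less RNA per cell cannot be told apart. The plot of mean levels shows the gene groups that lay furthest from the diagonal.

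**Figure D1:**
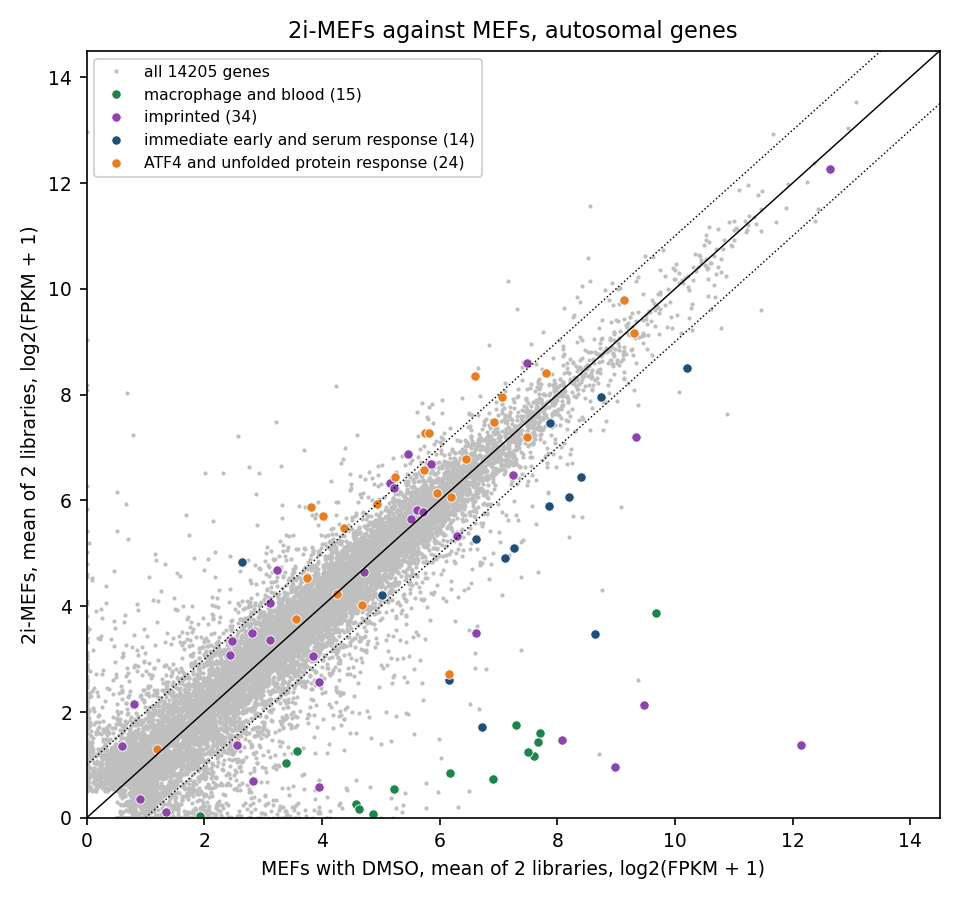
Mean log2(FPKM + 1) of the 2 2i-MEF libraries (vertical axis) against that of the 2 MEF libraries with DMSO (horizontal axis), with 1 point per autosomal gene, equality as a solid line and 2-fold differences as dotted lines. All 15 macrophage and blood genes lie below the lower dotted line, as do imprinted genes such as *Igf2*, and most ATF4 genes lie above the solid line.

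The protein-coding genes with the widest gap were the imprinted genes *Igf2*, *Dlk1* and *Cdkn1c*, and 2 of 7 tested genes of paternally marked domains and 10 of 27 of maternally marked domains were at least 2-fold apart, against 5.76% of all genes tested. *Igf2*, a fetal growth factor expressed from the paternal allele (mm10, chr7:142650766-142666816, minus strand), was at 2.3 and 1.04 FPKM in 2i-MEFs and at 4320.0 and 4746 FPKM in MEFs. These 2i-MEF values rest on 4 to 114 and 2 to 43 reads, depending on the transcript. On the log2(FPKM + 1) scale *Igf2* fell by 10.77 (SE 0.26, adjusted p = 0.000704), and its mean FPKM was 2711-fold lower. *Dlk1*, a paternally expressed inhibitor of adipocyte differentiation (chr12:109452823-109463336, plus strand), was at 3.88 and 2.98 FPKM against 689 and 738 FPKM, and fell by 7.34 (SE 0.17, adjusted p = 0.000704). Both genes belong to domains whose mark is set on the paternal allele. All 3 tested genes expressed from the marked paternal allele were lower in 2i-MEFs without overlap, as were the 2 that stayed under 1 FPKM; the third, *Dio3*, an enzyme that inactivates thyroid hormone, was at 2.24 and 1.07 FPKM against 2.64 and 8.39 FPKM and was not called by limma.

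The maternally expressed noncoding RNAs of the same domains did not show such separation. *H19* was at 5846 and 4186 FPKM in 2i-MEFs and 6026 and 6654 FPKM in MEFs, so its nearest libraries were almost level. *Meg3* was at 93.7 and 111 FPKM against 25.6 and 126 FPKM, and *Rian* at 326 and 454 FPKM against 120 and 267 FPKM. For *Meg3* and its neighbour *Mirg* the sides overlapped, with WT MEFs lowest and the library labelled *Dnmt3a* KO within or above the range of the 2i-MEFs.

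In domains marked on the maternal allele, 6 of 9 tested maternally expressed genes were lower in 2i-MEFs and 0 were higher; all 6 were at least 2-fold apart and limma called 5. Over all genes tested, 26.6% were lower without overlap, 3.46% at least 2-fold and 2.20% by limma. Over all 15 such genes in the table, 8 were lower, 0 higher and 7 overlapped. *Cdkn1c*, an inhibitor of cyclin-dependent kinases (chr7:143458339-143461050, minus strand), was at 0.196 and 2.18 FPKM against 574 and 440 FPKM and fell by 8.01 on the log2 scale (SE 0.49, adjusted p = 0.00693). *Grb10*, an adaptor that damps insulin and growth factor signalling (chr11:11930508-12038683, minus strand), was at 2.56 and 1.17 FPKM against 188 and 390 FPKM and fell by 6.61 (SE 0.43, adjusted p = 0.00738). *Igf2r*, the receptor that clears IGF2, was at 14.2 and 7.45 FPKM against 87.7 and 108 FPKM. *Zim1*, at 0.123 and 1.0 FPKM against 9.67 and 21.6 FPKM, and the transporter gene *Slc22a18*, at 0.972 and 0.329 FPKM against 6.06 and 6.13 FPKM, were the other called genes. *Asb4* was at 0.0296 and 0.117 FPKM in 2i-MEFs and at 1.39 and 1.70 FPKM in MEFs (adjusted p = 0.114). The sides overlapped for *Phlda2*, *Ube3a* and *Osbpl5*.

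Paternally expressed genes of maternally marked domains differed in both directions. Of 18 tested, 10 were higher in 2i-MEFs (55.6%), 5 were lower (27.8%) and 3 overlapped, against 30.0% and 26.6% of all genes tested; over all 22 in the table, 11 were higher, 6 lower and 5 overlapped. Limma called 2 in each direction, and 2 in each direction were at least 2-fold apart. *Snrpn*, which encodes a splicing protein, was at 24.7 FPKM in both 2i-MEF libraries and 7.79 and 9.11 FPKM in MEFs (log2 difference 1.45, SE 0.18, adjusted p = 0.0259). *Snurf* shares its locus and transcripts, so reads of the pair cannot be assigned with certainty. *Impact*, a translational regulator, was at 78.4 and 79.4 FPKM against 32.0 and 37.3 FPKM (log2 difference 1.17, SE 0.15, adjusted p = 0.0304). *Airn*, the noncoding RNA that runs antisense over *Igf2r*, was at 8.57 and 6.46 FPKM against 3.21 and 5.95 FPKM. *Sgce*, *Inpp5f*, *Zrsr1*, *Mcts2*, *Nap1l5* and *Zdbf2* were also higher without overlap and were not called. *Mest* and *Peg10* were the called exceptions: *Mest* was at 193 and 111 FPKM against 524 and 798 FPKM (adjusted p = 0.0487), and *Peg10* at 4.73 and 5.12 FPKM against 13.4 and 15.6 FPKM (adjusted p = 0.0377). These calls depended on the fit. With the *Dnmt3a* label as a second term, limma no longer called *Impact* and *Peg10*, and still called *Snrpn* and *Mest*. With untrended variance it no longer called *Impact* and *Mest*, and still called *Snrpn* and *Peg10*. *Peg3*, *Plagl1* and *Nnat* were lower without overlap and not called. Across all tested genes the median log2 difference was 0.03, against 0.67 for these 18 paternally expressed genes and -2.13 for the 9 maternally expressed ones.

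**Figure D2:**
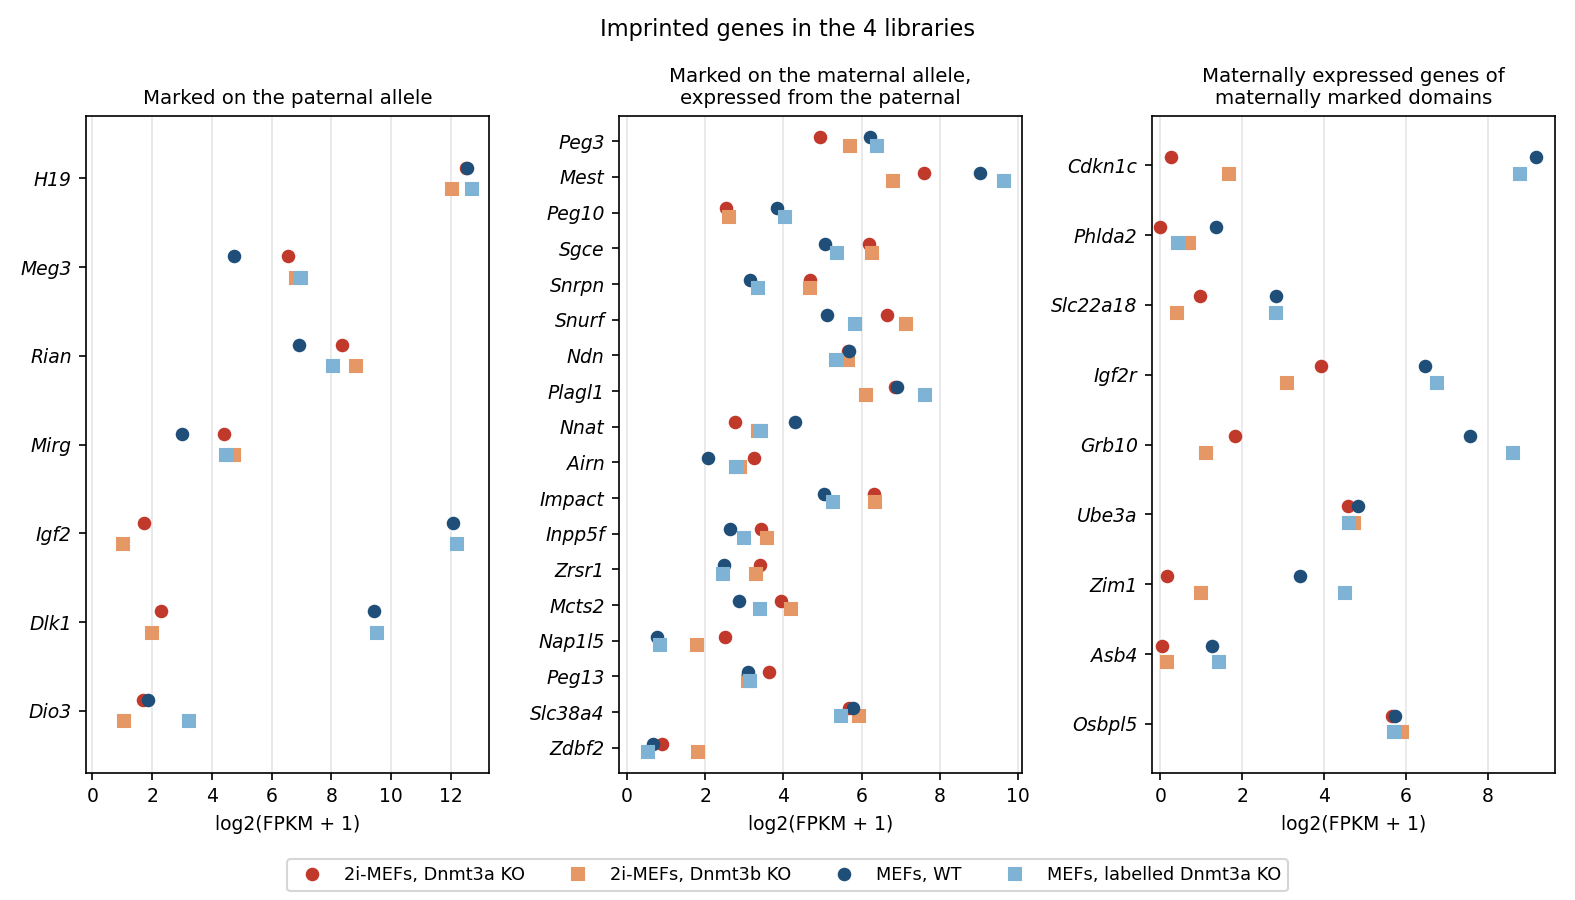
Level of each tested imprinted gene in the 4 libraries, in log2(FPKM + 1), grouped by the parental allele that carries the mark and the allele that is expressed. The 2 2i-MEF libraries (red and orange) lie far left of the 2 MEF libraries (dark and light blue) for *Igf2*, *Dlk1*, *Cdkn1c* and *Grb10*, and right of them for *Snrpn* and *Impact*.

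Genes of macrophages and other blood cells were all lower in 2i-MEFs. Of the 15 listed genes, 15 were tested, 15 were at least 2-fold lower without overlap and 15 fell by limma, against 3.46% and 2.20% of all genes tested, with a median log2 difference of -5.34. Summed over the list, they made 37.7 and 19.6 FPKM in 2i-MEFs and 2390.3 and 1833 FPKM in MEFs. *Lyz2*, lysozyme of macrophages and neutrophils (chr10:117277331-117282321, minus strand), was at 16 and 11.5 FPKM against 835 and 802 FPKM and fell by 5.81 (SE 0.19, adjusted p = 0.00178). *Tyrobp*, a signalling adaptor of myeloid receptors, was at 2.18 and 0.601 FPKM against 220 and 169 FPKM. *Csf1r*, the receptor that macrophages need to survive, was at 0.748 and 0.208 FPKM against 50.5 and 26.1 FPKM, and *Adgre1*, which encodes F4/80, was at 0.0939 and 0 FPKM against 36.3 and 22 FPKM. *Spi1*, the transcription factor PU.1, was at 0.268 and 0 FPKM against 27.8 and 20.4 FPKM. *Ptprc*, *Cd14*, *Mrc1*, *Cd53* and *Laptm5* of the same list also fell. In the *Dnmt3b* KO 2i-MEF library 3 of the 15 genes were at 0 FPKM, and in the other libraries none was. The 2i-MEFs had been sorted for GFP, and no sort is stated for the MEFs; the part of the sort in these differences was not tested.

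Of the 15 protein-coding genes with the widest gap downwards, 4 were the imprinted genes *Igf2*, *Dlk1*, *Cdkn1c* and *Grb10*. The macrophage and blood list held 7 more, *Tyrobp*, *Lyz2*, *C1qa*, *C1qb*, *C1qc*, *Cd68* and *Fcer1g*. The other 4, *Trem2*, *Ctss*, *Fcgr3* and *Folr2*, stood on no list, and macrophages are known to express them. *Trem2*, a lipid receptor of macrophages and microglia, was at 0.321 and 0 FPKM against 94.7 and 65.2 FPKM, and *Folr2*, a folate receptor of resident macrophages, was at 0.179 and 0 FPKM against 45.3 and 35.4 FPKM. *Pf4*, a chemokine of platelets and of some macrophages, was listed at 0 in both 2i-MEF libraries and at 35.5 and 27.5 FPKM in MEFs. *Ccl9*, at 1.33 and 2.2 FPKM against 39.7 and 31.1 FPKM, and the scavenger receptor gene *Cd36*, at 0.732 and 0.435 FPKM against 51.2 and 55.6 FPKM, also fell, and macrophages are known to express both. How much of the differences in *Ccl9* and *Cd36* went with the macrophage genes was not tested.

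In the lists of the remaining cell types few genes were called. Over all genes tested 30.0% were higher and 26.6% lower without overlap, and lists of this size leave little to read from such counts. All 20 fibroblast genes were measured on both sides, with sums of 28055 and 26056 FPKM in 2i-MEFs and 23279.5 and 19162 FPKM in MEFs, so both labels hold as fibroblast cultures. Of 8 mesothelial genes, 4 were lower and 0 higher in 2i-MEFs; *Msln*, mesothelin, was at 4.49 and 5.18 FPKM against 29.5 and 42.3 FPKM and fell by 2.64 (SE 0.24, adjusted p = 0.0127). *Upk3b*, another mesothelial gene, was at 2.66 and 1.54 FPKM against 12.9 and 40.5 FPKM and was not called. *Krt19*, a keratin of simple epithelia, was at 1.91 and 2.2 FPKM against 22.6 and 19.8 FPKM and fell. The haemoglobin gene *Hba-a1* was at 0 in both 2i-MEF libraries and at 1.33 and 0.266 FPKM in MEFs. Of 12 endothelial genes 5 were tested, and the widest difference was in *Erg*, at 12.0 and 6.30 FPKM against 2.29 and 1.22 FPKM (adjusted p = 0.085). Of 5 tested adipocyte genes 3 were lower and 1 higher, with sums of 95.7 and 114 FPKM against 202 and 189 FPKM; *Cd36* and *Lpl*, lipoprotein lipase, which macrophages are also known to express, fell, and *Lpl* was at 45.3 and 44.8 FPKM against 117 and 93.5 FPKM. Of 11 cartilage genes 3 were higher and 3 lower, and *Sox5* and *Col2a1* were at least 2-fold lower and not called. *Col2a1*, the collagen of cartilage, was at 20.8 and 1.29 FPKM against 60.2 and 196 FPKM. Of 7 bone genes 4 were lower and of 6 pericyte genes 4 were lower and 1 higher, none of them called. Of 14 housekeeping genes 5 were higher and 7 lower; *Gusb*, a lysosomal enzyme, was at 39.6 and 31.1 FPKM against 87.3 and 73.5 FPKM and fell. *Cdh5*, the defining cadherin of endothelium, was at 0 in both 2i-MEF libraries and at 1.90 and 0.0514 FPKM in MEFs.

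**Figure D3:**
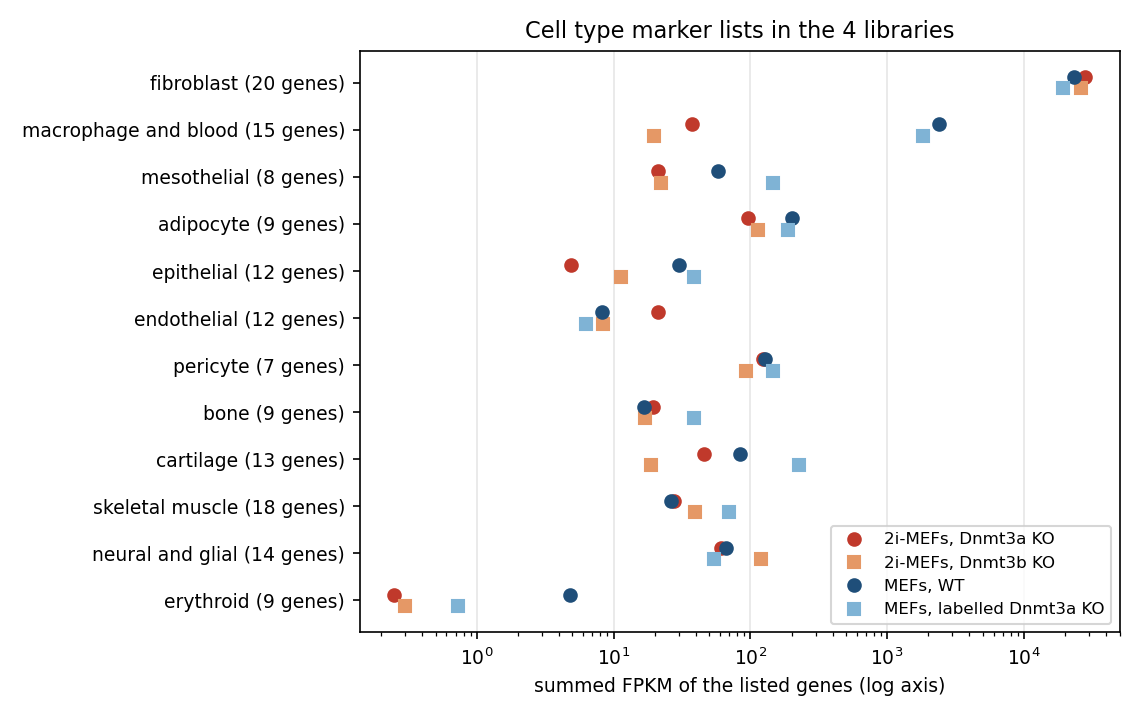
Summed FPKM of 12 cell type marker lists in each library, on a log axis. Macrophage and blood genes separate the sides most widely (37.7 and 19.6 FPKM in 2i-MEFs, 2390.3 and 1833 FPKM in MEFs), and the fibroblast sums lie close together.

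Immediate early and serum response genes, which cells switch on within minutes of a growth factor or mechanical stimulus, were lower in 2i-MEFs. Of 14 listed genes, 13 were lower without overlap, 8 of them at least 2-fold, and limma called 7, with a median log2 difference of -1.96. Over all genes tested these shares were 26.6%, 3.46% and 2.20%. *Nr4a1*, an orphan nuclear receptor, was at 11.5 and 8.78 FPKM in 2i-MEFs and at 314 and 500 FPKM in MEFs and fell by 5.17 (SE 0.28, adjusted p = 0.00462). *Fosb*, a subunit of the AP-1 transcription factor, was at 4.76 and 0.881 FPKM against 78.8 and 137 FPKM and fell by 5.0 (SE 0.60, adjusted p = 0.0254). *Egr2* was at 6.34 and 4.01 FPKM against 76.7 and 65.5 FPKM, and *Egr1*, like it a zinc finger factor, was at 79.3 and 55.1 FPKM against 242 and 353 FPKM. *Junb*, *Ier2* and *Cyr61* were the other called genes. *Dusp1*, a phosphatase that switches MAP kinases off, was at 36.5 and 23 FPKM against 87.4 and 215 FPKM and was not called. *Ankrd1*, a target of the YAP coactivator, was the exception, at 9.71 and 75 FPKM against 3.41 and 7.81 FPKM.

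Outside that list, *Btg2*, *Klf2*, *Klf4*, *Egr4* and *Ptgs2*, which growth factors or stress are known to induce, were also lower; they were put together after their values were seen, so no count stands behind them. *Btg2*, an antiproliferative target of p53, was at 20.3 and 28.3 FPKM against 156 and 265 FPKM and fell by 3.03 (SE 0.31, adjusted p = 0.018). *Klf2* and *Klf4*, zinc finger factors that serum and shear stress induce and that pluripotent cells also express, both fell: *Klf2* was at 12.7 and 9.07 FPKM against 75.1 and 107 FPKM, and *Klf4* at 28.7 and 21.6 FPKM against 80.6 and 106 FPKM. *Egr4* was listed at 0 in both 2i-MEF libraries and at 11.4 and 22 FPKM in MEFs. *Ptgs2*, the inducible cyclooxygenase, was at 4.05 and 11.7 FPKM against 26.6 and 53.2 FPKM and was not called. In these 5 genes the library labelled *Dnmt3a* KO was above WT MEFs. The MEFs had been seeded the day before treatment and the 2i-MEFs had been through G418 and a sort; the part of this handling in these differences was not tested. With the 2 MEF libraries treated with GSK126 also required to lie outside, 13 of the 14 listed genes remained lower and 8 at least 2-fold.

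Target genes of p53 and other growth arrest genes were mostly lower as well. Of 21 tested, 12 were lower (57.1%), 2 were higher (9.52%) and 7 overlapped, against 26.6% and 30.0% of all genes tested. *Cdkn1a*, which encodes p21, was at 164 and 201 FPKM against 426 and 484 FPKM, and *Phlda3* at 114 and 118 FPKM against 282 and 310.0 FPKM, and both fell. *Mdm2*, *Ccng1*, *Zmat3* and *Bbc3* were lower without overlap and not called. *Cdkn1b*, which encodes p27, was the called exception, at 32.2 and 31.9 FPKM against 11.7 and 15.5 FPKM. *Cdkn2a* overlapped, at 66.8 and 101 FPKM against 124 and 99.5 FPKM. Of 24 genes of the G2 and M phases, 0 were higher and 11 lower, with none 2-fold apart or called; *Mki67* was at 8.38 and 8.27 FPKM against 17.3 and 12.7 FPKM. With the GSK126-treated MEFs included, 0 of these 24 genes lay outside all MEF libraries. Of 24 S phase genes, 5 were higher (20.8%) and 8 lower (33.3%), none of them called, near the 30.0% and 26.6% of all genes tested.

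Several matrix and fibroblast genes were higher in 2i-MEFs. *Postn*, periostin, a matrix protein of activated fibroblasts (chr3:54361109-54391037, plus strand), was at 3202 and 2904 FPKM in 2i-MEFs and 322 and 436 FPKM in MEFs and rose by 3.02 (SE 0.19, adjusted p = 0.0072). *Fap*, a serine protease of activated fibroblasts, was at 32.6 and 30.7 FPKM against 4.08 and 3.07 FPKM and rose by 2.84 (SE 0.20, adjusted p = 0.008). *Pdgfrb*, a receptor for PDGF, was at 249 and 162 FPKM against 53.7 and 77.5 FPKM and was not called. Of 20 fibroblast genes, 10 were higher (50%), 3 lower (15%) and 7 overlapped, against 30.0% and 26.6% of all genes tested. The collagen chain *Col3a1* was at 8810.4 and 6951 FPKM against 3833 and 2754 FPKM, while *Col1a1* overlapped, at 3864 and 4241 FPKM against 4281 and 3475 FPKM. *S100a4*, a calcium-binding protein of motile fibroblasts and of macrophages, fell, at 258 and 149.9 FPKM against 2367 and 1494 FPKM, and *Vim* was lower without overlap and not called.

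Matrix proteases were higher in 10 of 17 tested genes (58.8%) and lower in 2 (11.8%), against 30.0% and 26.6% of all genes tested. *Mmp11*, stromelysin 3, was at 131 and 167 FPKM against 46.0 and 51.2 FPKM and rose. *Mmp3*, stromelysin 1, was at 13.1 and 42.8 FPKM against 2.08 and 1.76 FPKM and *Mmp13* at 16.4 and 122 FPKM against 4.43 and 9.25 FPKM, neither called. *Col7a1*, the anchoring fibril collagen, was at 22.7 and 31.1 FPKM against 5.29 and 7.47 FPKM and rose. Of 23 matrix glycoprotein genes, 10 were higher (43.5%) and 6 lower (26.1%) with none called, the latter near the share of all genes. *Fbln2*, fibulin 2, was at 690 and 1216 FPKM against 320 and 325 FPKM; elastin, *Eln*, was at 2010.4 and 647 FPKM against 63.3 and 317 FPKM, a spread within each side that left an adjusted p of 0.16. The smooth muscle actin gene *Acta2* was at 1860.1 and 2825 FPKM against 1304 and 1771 FPKM. Of 17 contractile genes, 7 were higher (41.2%) and 2 lower (11.8%), and limma called 1, *Myl9*. Of 5 tested protease inhibitors 1 was higher and 2 lower; the higher, *Serpinf1*, which encodes PEDF, was at 1832 and 1585 FPKM against 885 and 901 FPKM and rose.

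Many genes of amino acid supply and the ATF4 response were higher in 2i-MEFs, and *Atf3* was lower. ATF4 is a transcription factor whose translation rises under amino acid shortage and endoplasmic reticulum stress. Of 24 tested genes of this group, 15 were higher (62.5%), 4 were lower (16.7%) and 5 overlapped, against 30.0% and 26.6% of all genes tested, and limma called 4 higher and 1 lower. The median log2 difference was 0.63. *Trib3*, a pseudokinase, was at 46.3 and 72.6 FPKM against 11.8 and 14.4 FPKM and rose by 2.07 (SE 0.27, adjusted p = 0.0299). *Asns*, asparagine synthetase, was at 124 and 189 FPKM against 50.7 and 54.9 FPKM and rose by 1.52 (SE 0.23, adjusted p = 0.0445). *Slc7a5*, a transporter of large neutral amino acids, and *Aldh1l2*, a folate enzyme of mitochondria, rose as well. *Nupr1*, a stress-induced chromatin protein, was at 281 and 378 FPKM against 70.9 and 131 FPKM (adjusted p = 0.0699). The gene called lower was *Atf3*, a transcription factor that ATF4 and serum are both known to induce: it was at 4.31 and 7.11 FPKM against 49.6 and 100 FPKM and fell by 3.45 (SE 0.41, adjusted p = 0.0247). *Atf4* itself was at 224 and 273 FPKM against 92.8 and 188 FPKM. Chaperones of the unfolded protein response went both ways: *Hspa5*, *Sdf2l1* and *Pdia4* were lower without overlap, and *Hsp90b1* was higher.

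In MEFs treated with GSK126, an inhibitor of the histone methyltransferase EZH2, the level of *Trib3*, *Asns*, *Slc7a5*, *Aldh1l2* and *Nupr1* lay between that of 2i-MEFs and of MEFs with DMSO. *Trib3* was at 24.8 and 28.4 FPKM and *Asns* at 86.7 FPKM in both treated libraries. Against MEFs with DMSO, 5 of the 24 genes were at least 2-fold higher and 1 at least 2-fold lower. With the treated libraries also required to lie outside, 13 genes were higher and 2 lower, 0 of them at least 2-fold higher and 1 at least 2-fold lower. Of genes of sterol and fatty acid synthesis, 14 of 26 tested genes were higher (53.8%) and 4 lower (15.4%) than in MEFs with DMSO, none called, against 30.0% and 26.6% of all genes tested, and 0 of 26 were higher than in all MEF libraries. *Hmgcs1*, an enzyme of the mevalonate pathway, was at 84.2 and 87.7 FPKM in 2i-MEFs, 43.1 and 52.0 FPKM in MEFs with DMSO and 96.6 and 127 FPKM in MEFs with GSK126.

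**Figure D4:**
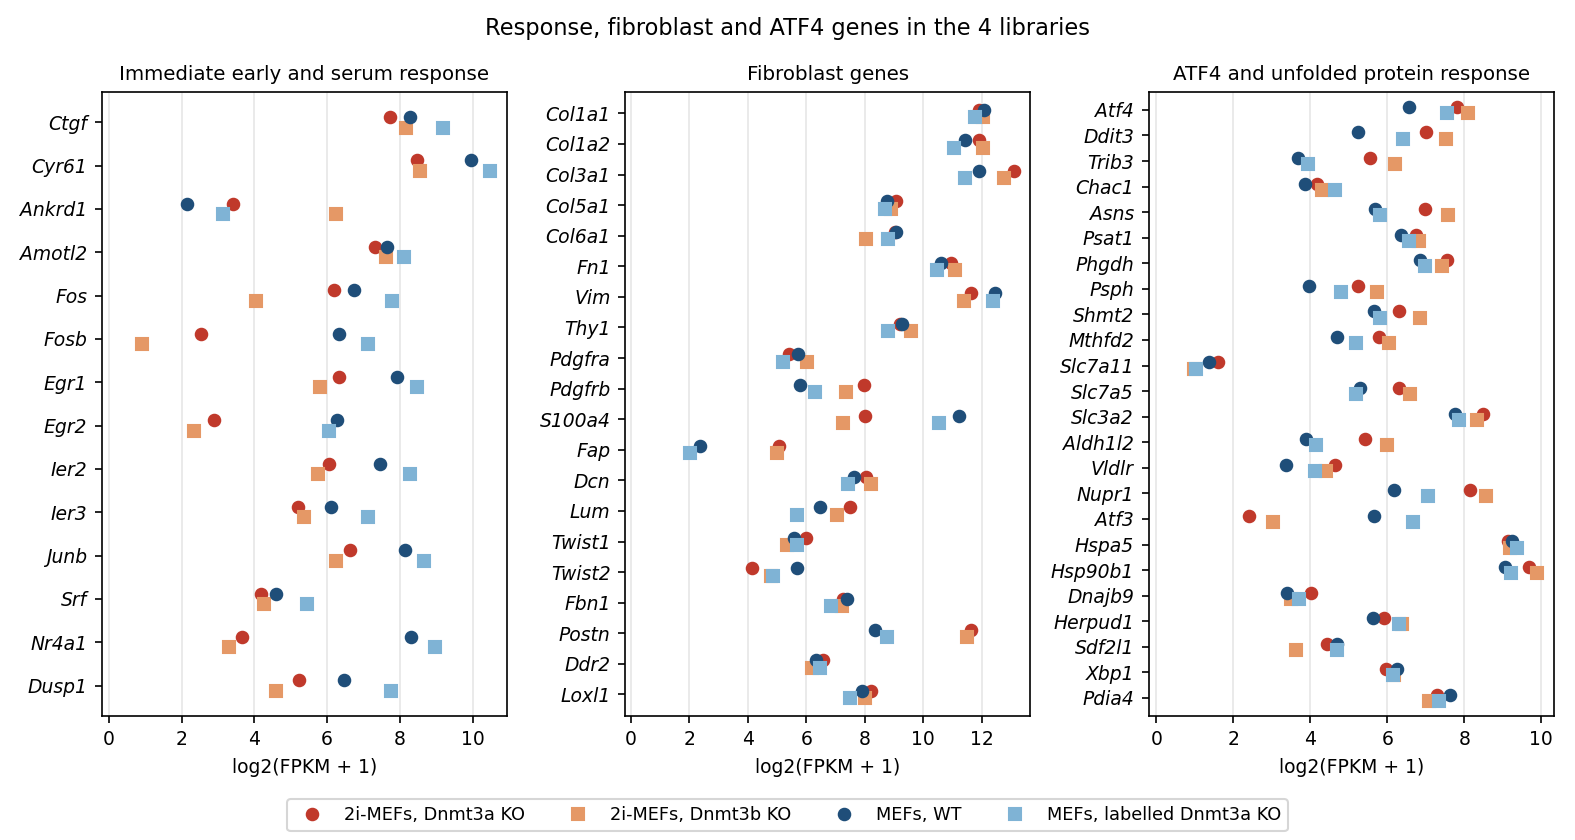
Level of each tested gene of the immediate early and serum response list, the fibroblast list and the ATF4 and unfolded protein response list in the 4 libraries, in log2(FPKM + 1). For *Nr4a1*, *Fosb* and *Egr2* the 2i-MEF libraries (red and orange) lie left of the MEF libraries (blue), and for *Postn*, *Fap*, *Trib3* and *Asns* they lie right of them.

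The promoters of 3 of these genes are shown because each holds the letters TGATGNAA (searched on both strands, not overlapping another searched motif), the core of the element that ATF4 is known to bind with C/EBP factors. Sequences are from RefSeq on GRCm38.p6, the assembly of mm10, from 250 bases before to 50 after the annotated start, and capitals mark the match, which on the opposite strand reads TTNCATCA. The windows are chr2:152344011-152344310 for *Trib3*, with the match 14 bases after the start, chr6:7693160-7693459 for *Asns*, 23 bases before it, and chr7:126625421-126625720 for *Nupr1*, 110 bases before it. All 3 lie on the minus strand.
Trib3: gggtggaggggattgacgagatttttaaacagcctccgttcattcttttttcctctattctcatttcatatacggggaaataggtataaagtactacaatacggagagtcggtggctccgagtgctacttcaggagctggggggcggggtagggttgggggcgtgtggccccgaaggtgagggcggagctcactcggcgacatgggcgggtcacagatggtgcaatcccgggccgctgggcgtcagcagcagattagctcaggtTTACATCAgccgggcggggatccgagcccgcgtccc
Asns: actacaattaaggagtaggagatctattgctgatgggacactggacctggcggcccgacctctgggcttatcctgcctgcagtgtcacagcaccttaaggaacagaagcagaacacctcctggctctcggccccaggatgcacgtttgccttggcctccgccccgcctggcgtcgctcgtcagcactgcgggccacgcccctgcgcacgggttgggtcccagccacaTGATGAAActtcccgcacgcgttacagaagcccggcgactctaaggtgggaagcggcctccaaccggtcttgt
Nupr1: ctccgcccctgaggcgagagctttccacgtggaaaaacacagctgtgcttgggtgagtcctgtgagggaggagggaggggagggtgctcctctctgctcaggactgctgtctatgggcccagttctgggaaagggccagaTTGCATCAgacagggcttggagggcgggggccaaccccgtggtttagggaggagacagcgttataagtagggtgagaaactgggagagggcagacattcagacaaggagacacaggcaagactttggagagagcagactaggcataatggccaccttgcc

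A window was given for 22 of the 24 listed genes, and 8 of them (36.4%) held the letters, against 4.51% of all 27025 genes with a window. The 8 include *Atf3*, which fell, and *Slc7a11*, which overlapped at 2.05 and 0.967 FPKM against 1.57 and 1.04 FPKM. No window was given for *Slc7a5* and *Aldh1l2*. The motif was chosen with the values of these genes known, and a match is a description of the sequence only.

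Among germline genes, which DNA methylation is known to hold silent in somatic cells, 11 of the 29 in the table reached 1 FPKM in at least 1 library and were tested. A gene that is high on 1 side only passes this filter through that side, so the members that passed say little about the list. Over all 28 autosomal members in the table, 7 were higher in 2i-MEFs, 2 were lower and 19 overlapped. Of all 22691 autosomal genes above 0 in at least 1 library, 5107 were higher and 5460 lower. The share of germline genes that were higher was near that of all genes, and the share that were lower was below it. The 28 include members at 0 in every library, such as *Zfp42*, which the 22691 leave out. *Syce1*, a component of the synaptonemal complex of meiosis, was at 20.5 and 28.8 FPKM in 2i-MEFs and 0.0883 and 0.744 FPKM in MEFs and rose by 4.20 (SE 0.34, adjusted p = 0.0102). *Sycp1*, *Sycp3*, *Mael* and *Slc25a31* were higher without overlap and not called, and *Slc25a31*, a testis form of the ADP/ATP carrier, was high in 1 library only, at 1.19 and 18.7 FPKM against 0 and 0.425 FPKM. *Mov10l1*, *Tex12* and *Fkbp6* were at 0 in *Dnmt3a* KO 2i-MEFs and at 2.14, 3.93 and 2.06 FPKM in *Dnmt3b* KO 2i-MEFs. The *Syce1* promoter (chr7:140787805-140788104, minus strand) is shown for its CG dinucleotides, in capitals, the sites of DNA methylation. It holds 14, within the interquartile range of 3 to 20 over all 32851 windows (median 7).
Syce1: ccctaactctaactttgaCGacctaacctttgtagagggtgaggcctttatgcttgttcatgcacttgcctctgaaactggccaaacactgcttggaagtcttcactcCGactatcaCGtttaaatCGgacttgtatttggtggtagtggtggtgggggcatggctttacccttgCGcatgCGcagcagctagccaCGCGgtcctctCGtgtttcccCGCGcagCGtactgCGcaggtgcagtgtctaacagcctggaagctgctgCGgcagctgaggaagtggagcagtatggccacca

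Of the *Pcdhb* protocadherins, cell surface proteins expressed in random subsets in neurons, 7 of 22 reached 1 FPKM in at least 1 library, each with its highest value in a 2i-MEF library. Over all 22 genes, 10 were higher in 2i-MEFs without overlap, 0 were lower and 12 overlapped. Of all 22691 autosomal genes above 0 in at least 1 library, 5107 were higher and 5460 lower. That set leaves out genes at 0 in every library, such as *Pcdhb1*. In 8 of the 15 genes under 1 FPKM, *Dnmt3b* KO 2i-MEFs were below both MEF libraries: *Pcdhb8*, for instance, was at 0.467 and 0 FPKM against 0.425 and 0.30 FPKM. The highest, *Pcdhb22*, was at 5.30 and 10.0 FPKM against 3.99 and 3.60 FPKM. None of the 7 was 2-fold apart or called. Of the neighbouring *Pcdhg* genes, 3 of 22 were higher (13.6%), 5 lower (22.7%) and 14 overlapped, against 30.0% and 26.6% of all genes tested. Of 27 tested Polycomb genes, whose products repress developmental genes, 14 were higher (51.9%), 4 were lower (14.8%) and none was called; *Cbx2* was at 4.11 and 4.02 FPKM against 1.36 and 1.67 FPKM, and *Ezh2* was nearly level, at 21.9 and 20.7 FPKM against 18.8 and 17.3 FPKM.

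Among transcription factors that mark position in the body, few were called. Of 34 tested *Hox* genes, 4 were higher (11.8%), 10 were lower (29.4%) and 20 overlapped, and none was called. Over all genes tested 30.0% were higher and 26.6% lower, so the share of lower *Hox* genes was near that of all genes. The lower genes were 3 in *Hoxa*, 4 in *Hoxc* and 3 in *Hoxd* and none in *Hoxb*, and the higher genes were 1 in *Hoxa* and 3 in *Hoxb*. *Hoxb2* was at 12.7 and 12.6 FPKM against 2.1 and 5.33 FPKM. *Hoxa11*, active in the middle part of the limb, was at 1.21 and 2.3 FPKM against 11.8 and 6.87 FPKM, and *Hoxc10* at 4.62 and 5.63 FPKM against 27.4 and 12.5 FPKM. Of 49 other limb and face factors, 19 were lower and 6 higher, and 2 were called, both lower. *Lmx1b*, a factor of the dorsal limb, was at 0.225 and 0 FPKM against 3.56 and 2.88 FPKM, and *Eya2* was at 2.67 and 1.85 FPKM against 9.72 and 10.4 FPKM. *Pitx1*, a factor of the hindlimb, was at 1.95 and 4.26 FPKM against 50.5 and 10.9 FPKM and was not called. Which parts of the embryo entered each culture is not given in the sources used here.

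Of signalling genes, a few were called in each direction. Of 26 genes of the TGFb and BMP pathways, 9 were lower (34.6%) and 1 higher (3.85%), against 26.6% and 30.0% of all genes tested. *Id1*, a direct target of BMP signalling, was at 49.4 and 30.0 FPKM against 255 and 334 FPKM and fell by 2.89 (SE 0.29, adjusted p = 0.0167), while the ligand *Tgfb3* rose, at 148 and 128 FPKM against 57.2 and 64.1 FPKM. *Gdf5*, a ligand of joints, and *Nog*, an inhibitor of BMPs, were at least 2-fold lower and not called. Among Wnt genes, 6 of 29 were higher (20.7%) and 9 lower (31.0%), shares near those of all genes. The ligand *Wnt2* fell, at 0.267 and 0.159 FPKM against 6.52 and 4.54 FPKM, and the secreted inhibitor *Sfrp1* rose, at 95.2 and 80.8 FPKM against 32.0 and 27.8 FPKM. *Sfrp4* and *Nkd2* were at least 2-fold higher and *Sfrp2* at least 2-fold lower, none of them called. Among FGF and PDGF genes, 6 of 21 were higher (28.6%) and 10 lower (47.6%), and limma called 2: *Fgf10*, at 1.24 and 1.35 FPKM against 6.89 and 5.58 FPKM, and *Dusp6*, a phosphatase induced by ERK, at 11.3 and 7.62 FPKM against 30.7 and 50.1 FPKM, both lower. *Fgf18* was at least 2-fold higher and not called, as were *Igfbp7* of the IGF genes, the ligand *Hgf* and the lactate transporter gene *Slc16a3*. *Kitl*, the ligand of KIT, was at 1.44 and 1.26 FPKM against 14.7 and 12.8 FPKM and fell by 2.65 (SE 0.22, adjusted p = 0.0106). *Dhrs3*, a reductase of retinoid metabolism, was at 84.7 and 117 FPKM against 31 and 29 FPKM and rose. Of 14 genes of antigen presentation 8 were lower and 2 higher, and of 22 genes of oxidant defence 12 were lower and 4 higher, with none called in either group; *Tap1* of the former and *Nqo1* and *Gstm1* of the latter were at least 2-fold lower, as was the interferon target *Ifit3*. *C1s1*, which encodes a complement protease, was at 48.2 and 56.2 FPKM against 9.91 and 17.5 FPKM and rose. Class I genes differ between mouse strains and share sequence with each other, so their values are uncertain.

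Some genes with the widest gap upwards were copies of other genes. Among the 15 protein-coding genes with the widest gap, *Ftl1-ps1* and *Tpm3-rs7* are named as copies of a parent gene. *Ftl1-ps1*, a copy of the ferritin light chain gene (chr13:74399694-74407346), was at 139.8 and 158 FPKM in 2i-MEFs and 5.10 and 4.74 FPKM in MEFs, while *Ftl1* itself was at 1019 and 1148 FPKM against 1857 and 1402 FPKM. *Tpm3-rs7*, a copy of a tropomyosin gene, was at 17.5 and 22.4 FPKM against 0.321 and 0.184 FPKM, while *Tpm3* was at 243 and 304 FPKM against 432 and 339 FPKM. Of 57 tested copies, 12 were at least 2-fold higher in 2i-MEFs and 2 at least 2-fold lower, and of the 42 tested genes among their 44 parents none was 2-fold apart in either direction. Over all genes tested, 2.30% were at least 2-fold higher and 3.46% lower. By annotation, 52 of 365 processed pseudogenes were at least 2-fold higher and 16 lower, against 205 and 429 of 12303 protein-coding genes. A copy that is high on 1 side only passes the filter through that side, as *Rpl14-ps1*, *Rpl34-ps2* and *Slc39a1-ps* did with 0 FPKM in both MEF libraries. Most parents pass on both sides, so these counts say little about copies as a group. Reads of a copy and its parent can be assigned to each other, and reads of the F1 strain were mapped to the C57BL6 genome, so the levels of these copies are uncertain and strain cannot be told apart from the kind of MEF.

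**Figure D5:**
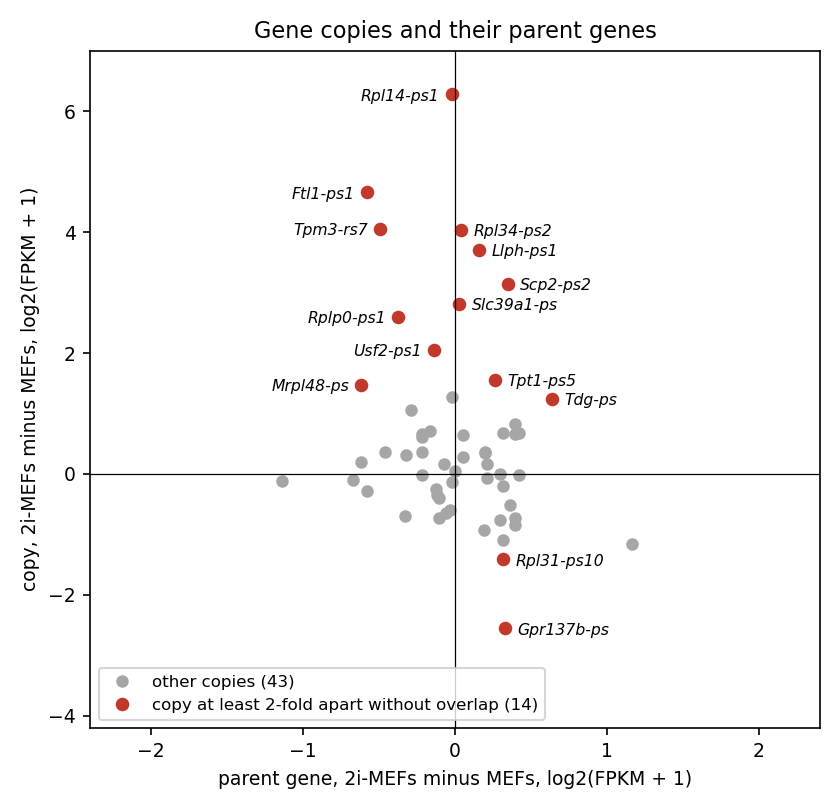
Difference between 2i-MEFs and MEFs in mean log2(FPKM + 1), for 57 gene copies (vertical axis) and their parent genes (horizontal axis), with the 14 copies at least 2-fold apart without overlap in red and named. Of the red copies 12 lie above 0, up to *Rpl14-ps1*, at 75.5 and 77.9 FPKM against 0 in both MEF libraries. No tested parent is 2-fold apart without overlap, but some lie off 0. *Polr2k* is at 42.6 and 28.7 FPKM against 13.6 and 16.7 FPKM, and *Fgfr3* at 1.61 and 0.546 FPKM against 1.73 and 6.17 FPKM.

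Other genes of that ranking were *Slco1a6*, *Gm13305*, *Syce1*, *Gm8797*, *Saa3*, *Lyz1*, *Ctla2a*, *Kcnj15*, *Postn*, *Cd200*, *Fap* and *Eno1b*. *Slco1a6*, an organic anion transporter of a family of close paralogs, was at 29.7 and 59.0 FPKM against 0.762 and 0.167 FPKM and rose by 4.90 (SE 0.41, adjusted p = 0.0109). *Saa3*, an acute phase protein, was at 94.2 and 86.6 FPKM against 0.471 and 10.0 FPKM and was not called. *Lyz1*, the Paneth cell lysozyme, was at 15 and 13.3 FPKM against 0.89 and 0.771 FPKM and rose. It is a close paralog of *Lyz2*, which fell, so reads of the pair may be split. *Cd200*, a ligand that restrains myeloid cells, was at 29.2 and 24.3 FPKM against 0.596 and 2.95 FPKM and rose. Several genes listed at 0 in both MEF libraries and high in 2i-MEFs were short RNAs such as *Mir762*, at 961 and 286 FPKM, and *Gm22721*, at 298 and 284 FPKM. *Mir130c* and *Gm22357* were listed likewise, and *Gm21769*, *n-R5s183* and *Gm38079* were at 0 in both 2i-MEF libraries. *Mir762* and *Gm22721* lie within a protein-coding gene and are shorter than a sequenced fragment, so the reads behind their FPKM cannot be worked out and it cannot be read as a level of the mature RNA.

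The genes that the study assigned to DNMT3A or DNMT3B by methylation in 2i-MEFs were counted on the same table, leaving out 26 named for both. These lists were chosen by the study on 2i-MEFs and are not independent evidence. Of 244 tested DNMT3A genes, 47 were higher (19.3%) and 81 lower (33.2%) without overlap, with a median log2 difference of -0.16. Of 110 tested DNMT3B genes, 32 were higher (29.1%) and 37 lower (33.6%), with a median of -0.15. Over all genes tested the shares were 30.0% and 26.6% and the median 0.03, and bare lack of overlap in the DNMT3B genes was near that of all genes. Limma called 3 higher and 6 lower of the 244 DNMT3A genes and 0 higher and 6 lower of the 110 DNMT3B genes, against 1.44% and 2.20% of all genes. At least 2-fold lower were 9 of the former and 8 of the latter, against 3.46% of all genes. At least 2-fold higher were 4 of the former and 1 of the latter, against 2.30%.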

How the data were processed

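RNA was sequenced from polyA-selected, stranded libraries. The authors trimmed reads with cutadapt, mapped them with TopHat2 and Bowtie2 to mm10 (GENCODE M15 annotation), discarded reads that mapped more than once or below a MAPQ of 20 and ran Cufflinks 2.2.1 for FPKM; the deposited FPKM values fill 1 table of 52609 rows, without counts or stated scaling between libraries. The submitters' notes give TopHat2 2.1.0.

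Here, 155 rows that repeat a symbol were summed, sex chromosomes were left out and genes of at least 1 FPKM in at least 1 of the 4 libraries were kept. Log2(FPKM + 1) was tested with limma 3.58.1 (R 4.3.3, trended variance) between sides, without covariates, with Benjamini-Hochberg adjustment, because FPKM are not counts. A gene was higher or lower when the sides did not overlap, and 2-fold apart when the nearest libraries were. Since low FPKM values step by whole reads, depth was fitted to genes with 1 transcript of at least 1500 bases; between 96.5% and 97.8% of values under 10 reads were whole within 0.1, where 20% would be by chance. Reads without molecular identifiers cover counting error only. On simulated data with 2 libraries a side, limma called 48% of genes changed 2-fold and 97.2% of those changed 4-fold, and 44 of 70025 unchanged genes. The changes were put only in genes with a mean log2(FPKM + 1) above 2, and the spread was smoothed over genes of similar level. Shares for lower or more variable genes were not estimated. A gene that limma did not call can differ by more than 4-fold, as *Saa3* did (log2 difference 4.50, adjusted p = 0.0843). Gene types, positions of transcripts and overlaps are from GENCODE M21.

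Genes named are the 15 protein-coding genes with the widest gap in each direction, list members called or 2-fold apart (otherwise the highest), *Dnmt3a*, *Dnmt3b* and *Xist*, and the 5 genes with the widest gap where 1 side is at 0; other genes were chosen after their values were seen. Results for 3 genes are not reported here, and 1 of them was left out of the counts of gene copies. The comparison and the gene lists were chosen with earlier results of these data known. Alternatives were another pseudocount, filters, centring, row choice, X-linked genes, each library left out, added GSK126-treated MEFs, a *Dnmt3a* label term, untrended variance and a 1.5-fold threshold. Tables and figures were made in Python 3.11.15 (pandas 2.3.3, numpy 2.4.6, matplotlib 3.10.9).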

Additional observations from a re-analysis of the deposited data

How the results depend on the processing

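Counts were compared with 205 higher and 312 lower genes by limma and 327 higher and 491 lower genes at least 2-fold apart. Without a filter on low values limma called 13 and 16 genes of 22691, and with 1 FPKM required in all 4 libraries it called 115 and 161 of 11149, with 154 and 200 genes 2-fold apart. A pseudocount of 0.1 FPKM left 550 and 777 genes 2-fold apart, a 1.5-fold threshold 792 and 991, and the libraries labelled *Dnmt3a* KO alone 861 and 1140. Adding the MEFs treated with GSK126 raised the limma calls to 461 and 621, sharing 506 of the 517 genes, and 250 and 397 genes stayed 2-fold apart. That fit held a term for GSK126 and counted the treated libraries as separate, though each shares its genotype label with a DMSO library. The rise in calls rests on this. Leaving out 1 library at a time gave 0 limma calls in either direction, with 456 to 727 genes at least 2-fold higher, 646 to 921 lower, 5362 to 6068 higher without overlap and 4885 to 5560 lower. With *Dnmt3b* KO 2i-MEFs alone against both MEF libraries 727 genes were 2-fold higher, and with *Dnmt3a* KO 2i-MEFs alone 651. With the *Dnmt3a* label as a term, 393 genes were called, 331 of them among the 517. Centring, the choice of row, X-linked genes and untrended variance kept each count within 1.5 times. With untrended variance, 391 of the 517 genes were still called. Of the named genes, 19 lost and 1 gained a call with untrended variance, and 17 lost and 11 gained one with the *Dnmt3a* label term. A pseudocount of 0.1 FPKM cost 11 named genes their call. No direction reversed among the 128 named genes in the alternatives that gave values for single genes. Most of these genes were chosen because the sides did not overlap, so most alternatives could not reverse them. The 1.5-fold threshold and the libraries labelled *Dnmt3a* KO alone gave counts only. Requiring 1 FPKM in all 4 libraries dropped some of the named genes. Limma called 96 of the 128 named genes. A fit with 1 library left out assumes that the side with 1 library varies like the other. In these fits the log2 differences of the 96 lay between 0.785 and 1.22 times those with all libraries. Called genes have a small spread within sides, so this narrow range follows from the call and does not test stability. Of the 96, 82 lost the call without the filter on low values. No paired analysis was possible because the labels give no replicate numbers. At 9180617 to 25620540 reads, 1 FPKM on a transcript of 2000 bases stands for 16.5 to 46.1 reads. Limma called 48% of simulated 2-fold changes, which were put only in genes with a mean log2(FPKM + 1) above 2.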
